A study of Mus musculus with 4 samples.

Results

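The transcripts of 10 growth factors that macrophages secrete were followed in mouse peritoneal macrophages with and without the Ch25h gene: Igf1, Tgfb1, Gdf15, Hbegf, Ereg, Osm, Lif, Pdgfa, Wnt2 and Prok2. They are 10 of the 23735 loci in the deposited table, each found on a single locus by its gene symbol. The members were chosen by name with their FPKM values in Ch25h_KO and Ch25h_WT libraries already known, so their differences between the groups are a description, with no test. Of the 10, 9 passed the filter on low values (a mean of at least 1 FPKM, the unit of fragments scaled by transcript length and by the mapped fragments of the library), and Ereg did not.

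The Ch25h_KO group held 2 libraries from C57BL/6 mice of the genotype ApoE-/-/Ch25h-/-, and the Ch25h_WT group held 2 libraries from ApoE-/-/Ch25h+/+ mice, so the Apoe mutation was shared by both groups. The mice were 6 weeks old and had been given 3% thioglycolate, a sterile irritant that draws macrophages into the peritoneal cavity, 3 days before collection. The cells were then kept in culture medium with serum before total RNA was extracted. The series names 12 mice per group and biological duplicates, but not how mice were shared out between the libraries, so the spread between libraries may be partly technical. The comparison asks which transcripts differ when Ch25h, the gene of cholesterol 25-hydroxylase, is deleted on that background.

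Growth factors are how macrophages act on the cells around them. TGF-beta 1 and GDF15 belong to the TGF-beta superfamily, HB-EGF and epiregulin bind EGF receptors, oncostatin M and LIF signal through the shared receptor chain gp130, and IGF1, PDGF-A, WNT2 and prokineticin 2 each act through receptors of their own family. In tissue repair and in the artery wall, macrophage-derived IGF1, TGF-beta 1 and PDGF act on fibroblasts and smooth muscle cells, while oncostatin M and LIF act on stromal and epithelial cells.

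Ch25h was 4.25 and 5.53 FPKM in the Ch25h_KO libraries, against 63.3 and 65.3 FPKM in the Ch25h_WT libraries, in the direction of the labels. Apoe RNA was detected in all 4 libraries, although all are labelled ApoE-/-, at 3683 and 3373 FPKM in Ch25h_KO and 614 and 610 FPKM in Ch25h_WT. The values per locus do not tell a disrupted transcript from a functional one, so what differs at the Apoe locus itself cannot be told apart from the deletion of Ch25h. Of 7 macrophage genes, Emr1, Itgam, Csf1r, Cd68 and Lyz2 were high in every library. Mertk was at most 27.4 FPKM and Fcgr1 at most 4.83 FPKM. Csf1r was 274 and 291 FPKM in Ch25h_KO libraries and 306 and 316 FPKM in Ch25h_WT libraries. Without overlap, 2 of the 7 (Emr1 and Csf1r) were lower in Ch25h_KO, against 30.3% of all tested loci. On the higher side without overlap was 1 (Fcgr1), against 23.4%. B cell genes were also present, summing over 6 genes to 287 and 302 FPKM in Ch25h_KO libraries and 320 and 323 FPKM in Ch25h_WT libraries. Of 7 T and NK cell genes, 5 were under 1 FPKM in every library, and all 4 eosinophil genes in the table were under 1 FPKM in every library. Relative depths were 0.824 and 0.770 for the Ch25h_KO libraries and 1 and 0.800 for the Ch25h_WT libraries. The medians of all tested loci differed little between the groups (median difference -0.014 on the log2(FPKM + 1) scale).

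Upstream sequences are printed because they belong to the members with the largest difference in each direction, Prok2 and Wnt2, and to the cytokine gene Lif, which shares a motif with Prok2. They come from RefSeq's promoter table of GRCm38.p6, which held 7 of the 10 members, with no entry used for Osm, Ereg or Hbegf. The deposited values rest on mm9, so genes were matched by symbol and no position was carried between the builds. Bases that GENCODE vM21 annotates as exon were left out of the printed stretches. Capitals mark an E-box (CACGTG) or an AP-1 motif (TGANTCA), searched on both strands. The Prok2 stretch is chr6:99726393-99726642 on the minus strand, the Wnt2 stretch is chr6:18030586-18030695 on the minus strand, and the Lif stretch is chr11:4257318-4257556 on the plus strand.
Prok2: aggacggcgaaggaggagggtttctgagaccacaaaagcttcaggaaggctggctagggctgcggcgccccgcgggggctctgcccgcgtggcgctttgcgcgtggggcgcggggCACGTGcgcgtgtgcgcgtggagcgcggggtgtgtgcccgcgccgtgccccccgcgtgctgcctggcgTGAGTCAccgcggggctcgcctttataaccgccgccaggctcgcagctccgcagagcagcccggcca
Wnt2: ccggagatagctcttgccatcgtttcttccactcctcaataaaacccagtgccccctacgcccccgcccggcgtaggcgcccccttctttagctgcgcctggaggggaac
Lif: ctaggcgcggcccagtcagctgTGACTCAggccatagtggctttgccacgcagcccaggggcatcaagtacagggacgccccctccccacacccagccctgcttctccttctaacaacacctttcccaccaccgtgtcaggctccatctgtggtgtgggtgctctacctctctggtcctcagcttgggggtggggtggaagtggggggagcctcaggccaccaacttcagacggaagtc

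The search was run over the 250 bases before the start in 9 entries of the 7 genes, since Gdf15 and Pdgfa have an entry for each of 2 starts. Unlike the printed stretches, the searched bases included annotated exon. AP-1 matched for Prok2, Lif and Igf1, and the E-box matched for Prok2 and for 1 of the 2 Gdf15 entries. The Igf1 entry had 0 bases free of exon, so its match lies in annotated exon. The Gdf15 match lies outside the longest exon-free stretch of its entry, which is 54 bases. For 7 of the 9 entries the bases after the start were found near the beginning of a GENCODE vM21 transcript of the gene. Of all 32851 promoters in the table, 6.75% held the AP-1 motif and 6.02% held the E-box. The GC box GGGCGG, also found in 32.7% of all promoters, matched for Tgfb1, Wnt2 and both Pdgfa entries. No match was found in any of the 9 entries for the cAMP response element TGACGTCA, the STAT motif TTCNNNGAA, the ATF4 composite motif TGATGNAA or the NF-kB motif, which were held by 1.55%, 7.02%, 3.45% and 3.90% of all promoters. The E-box and AP-1 matches in Prok2 do not overlap, and a match is a string of letters, not a bound site.

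The members spanned levels from 0.244 FPKM (Ereg) to 217 FPKM (Tgfb1) in single libraries, a scale per transcript length on which genes can be set side by side. In the Ch25h_KO libraries the order by mean level was Tgfb1, Gdf15, Prok2, Osm, Pdgfa, Igf1, Hbegf, Lif, Wnt2 and Ereg. In the Ch25h_WT libraries the order was Tgfb1, Gdf15, Pdgfa, Osm, Prok2, Igf1, Wnt2, Hbegf, Lif and Ereg. Prok2 thus stood in place 3 in Ch25h_KO and place 5 in Ch25h_WT, and Wnt2 in place 9 in Ch25h_KO and place 7 in Ch25h_WT. In the Ch25h_KO order the library values of Osm overlapped those of its neighbours Prok2 and Pdgfa, which did not overlap each other. Wnt2 and Hbegf, neighbours in the Ch25h_WT order, also overlapped.

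**Figure D1:**
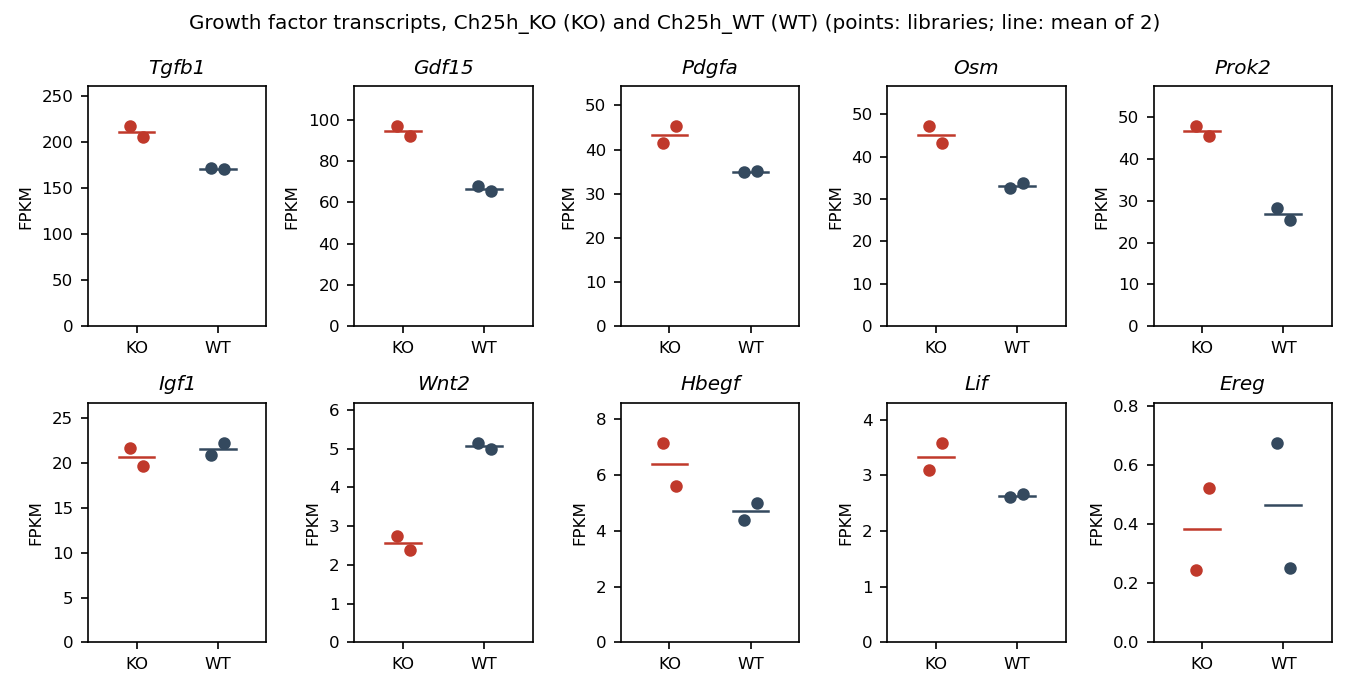
Level in FPKM (vertical axis, from 0, scaled for each gene) of the 10 growth factors in the 2 Ch25h_KO and the 2 Ch25h_WT libraries. Points are libraries and lines are means of 2. The Ch25h_KO points lie above the Ch25h_WT points for 7 genes and below them for Wnt2, and the groups overlap for Igf1 and Ereg.

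Of the 9 members that passed the filter, 7 were higher in both Ch25h_KO libraries than in either Ch25h_WT library, 1 (Wnt2) was lower in both, and Igf1 overlapped. Among all 10074 tested loci, 23.4% were higher without overlap in Ch25h_KO and 30.3% were lower. Across the whole table limma called 44 loci at a Benjamini-Hochberg adjusted p under 0.05, or 0.437% of those tested, and 2 of them were members: Prok2, which was higher (as were 0.228% of tested loci), and Wnt2, which was lower (as were 0.208%). Because the members were chosen with these values known, nothing is read from either count. Neither Prok2 nor Wnt2 was called when any single library was left out, where limma called between 13 and 21 loci. These are bulk libraries, so fewer cells of a type and less RNA per cell cannot be told apart.

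The TGF-beta ligand gene Tgfb1 was the most abundant member. It was 217 and 205 FPKM in the Ch25h_KO libraries, against 171 and 171 FPKM in the Ch25h_WT libraries. The Ch25h_WT libraries nearly coincided and both Ch25h_KO libraries were above them, by 1.23-fold on average (difference 0.30 on the log2(FPKM + 1) scale, SE 0.057). Gdf15, a divergent member of the superfamily that is induced by cell stress and acts on the brain through the receptor GFRAL, was 97.1 and 92.5 FPKM in Ch25h_KO libraries and 67.9 and 65.6 FPKM in Ch25h_WT libraries. The groups were well separated, with a ratio of means of 1.42 (log2 difference 0.50, SE 0.058).

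Of the 2 gp130 cytokines, Osm was the more abundant. Osm was 47.2 and 43.2 FPKM in Ch25h_KO libraries and 32.6 and 33.7 FPKM in Ch25h_WT libraries, 1.36 times as high in Ch25h_KO (log2 difference 0.43, SE 0.067). Lif was 3.09 and 3.59 FPKM in Ch25h_KO libraries and 2.61 and 2.67 FPKM in Ch25h_WT libraries, a ratio of 1.27 (log2 difference 0.25, SE 0.075). Osm and Lif are direct neighbours among protein-coding genes on chromosome 11 in the RefSeq table of GRCm38.p6, and both were higher in Ch25h_KO without overlap. Castor1, the protein-coding gene on the other side of Osm, was 1.49 and 1.53 FPKM in Ch25h_KO libraries and 1.66 and 1.34 FPKM in Ch25h_WT libraries, so its groups overlapped. The neighbours of Tgfb1 (B9d2 and Ccdc97) and of Gdf15 (Lrrc25 and Pgpep1) were also higher in Ch25h_KO without overlap. So were 23.4% of all tested loci. Pfdn1, a neighbour of Hbegf, overlapped.

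The EGF receptor ligands differed in level by an order of magnitude. Hbegf, which encodes a membrane-bound ligand that is shed by ADAM17, was 7.16 and 5.59 FPKM in Ch25h_KO libraries and 4.37 and 5.01 FPKM in Ch25h_WT libraries. Hbegf was 1.36 times as high in Ch25h_KO (log2 difference 0.37), but its libraries scattered more than those of any other tested member, with an SE of 0.12. Ereg, the epiregulin gene, was 0.244 and 0.523 FPKM in Ch25h_KO libraries and 0.677 and 0.252 FPKM in Ch25h_WT libraries. The 2 libraries of each group lay far apart and the groups overlapped.

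For Hbegf, Ereg and Wnt2 the values of all 4 libraries were whole multiples of a common fragment value within 0.002 fragments, which gives the number of fragments behind each level. Ereg rested on 11 and 22 fragments in Ch25h_KO libraries and 37 and 11 fragments in Ch25h_WT libraries. Within Ch25h_KO the 95% exact Poisson intervals of Ereg overlapped (0.122 to 0.437 and 0.328 to 0.792 FPKM), and within Ch25h_WT they did not meet (0.477 to 0.934 FPKM in replicate 1 and 0.126 to 0.450 FPKM in replicate 2). These intervals cover counting error only. Hbegf rested on 178 and 130 fragments in Ch25h_KO libraries and 132 and 121 fragments in Ch25h_WT libraries. The Hbegf interval of Ch25h_KO replicate 2, 4.67 to 6.64 FPKM, overlapped those of both Ch25h_WT libraries, 3.66 to 5.19 FPKM and 4.16 to 5.99 FPKM.

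**Figure D2:**
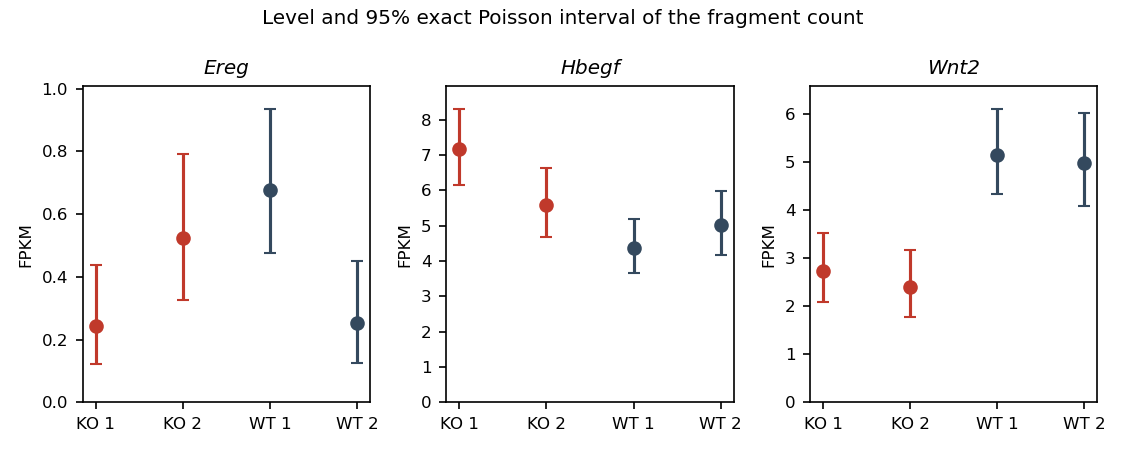
Level in FPKM (vertical axis, from 0) of Ereg, Hbegf and Wnt2 in each library, with the 95% exact Poisson interval of its fragment count. The Wnt2 intervals of the Ch25h_KO libraries, 2.09 to 3.53 and 1.77 to 3.17 FPKM, lie below those of the Ch25h_WT libraries, which start at 4.33 and 4.08 FPKM, while the Ereg intervals of the groups overlap.

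Wnt2, a WNT ligand known from the developing lung and from endothelial and stromal cells, was the member on the lower side. Wnt2 was 2.74 and 2.40 FPKM in the Ch25h_KO libraries, against 5.16 and 4.99 FPKM in the Ch25h_WT libraries. The Ch25h_KO libraries held 60 and 49 Wnt2 fragments and the Ch25h_WT libraries 137 and 106. These counts describe the 4 libraries, and the call of Wnt2 was lost with any single library left out. Ch25h_KO kept 0.506 of the Ch25h_WT level (log2 difference -0.77, SE 0.070), a difference lower than that of all but 0.4% of tested loci. The neighbouring gene St7 was 14.6 and 15.9 FPKM in Ch25h_KO libraries and 13.5 and 13.5 FPKM in Ch25h_WT libraries.

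Summed markers of mast cells, B cells and endothelial cells were, like Wnt2, lower in both Ch25h_KO libraries. The summed level of 9 mast cell and basophil genes was 158 and 161 FPKM in Ch25h_KO libraries and 226 and 231 FPKM in Ch25h_WT libraries. Of its 7 tested genes, 0 passed with limma over all loci, and 5 were lower at an unadjusted p under 0.05, against 11.5% of all tested loci. The basophil gene Mcpt8 was at 0 in 3 libraries and at 0.113 FPKM in 1. Of the 6 B cell genes, 5 were lower in Ch25h_KO without overlap, against 30.3% of all tested loci. Fibroblast and mesothelial markers lay the other way, summing to 5.30 and 4.42 FPKM over 12 genes in Ch25h_KO libraries and 1.85 and 1.70 FPKM in Ch25h_WT libraries, with 11 of the 12 under 1 FPKM in every library. Of 7 endothelial genes, Tek, Emcn and Cldn5 were at 0 in all 4 libraries, and the list summed to 4.24 and 4.54 FPKM in Ch25h_KO libraries and 5.11 and 5.27 FPKM in Ch25h_WT libraries. Nearly all of that sum was Pecam1, at 4.12 and 4.42 FPKM in Ch25h_KO libraries and 5.01 and 5.11 FPKM in Ch25h_WT libraries, a gene that macrophages also express. The part of these cells in the Wnt2 difference was not tested.

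Prok2, which encodes a small secreted protein that draws in myeloid cells and is abundant in neutrophils, had the largest positive difference of the members. Prok2 was 47.9 and 45.6 FPKM in Ch25h_KO libraries and 28.2 and 25.5 FPKM in Ch25h_WT libraries. The lowest Ch25h_KO library was well above the highest Ch25h_WT library, with a ratio of means of 1.74 (log2 difference 0.78, SE 0.072), above 99.6% of all tested loci. The neighbouring gene Rybp was 16.5 and 16.3 FPKM in Ch25h_KO libraries and 15.0 and 14.4 FPKM in Ch25h_WT libraries.

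The summed level of neutrophil markers was higher in Ch25h_KO, like Prok2 and Osm, but the genes of the list did not move together. The 10 neutrophil genes in the table summed to 165 and 165 FPKM in Ch25h_KO libraries and 112 and 122 FPKM in Ch25h_WT libraries. Most of that sum was S100a8, at 99.0 and 98.7 FPKM in Ch25h_KO libraries and 56.3 and 66.6 FPKM in Ch25h_WT libraries, a gene that activated macrophages also express. Camp, a granule gene, was 0.880 and 0.471 FPKM in Ch25h_KO libraries and 0.906 and 1.36 FPKM in Ch25h_WT libraries, and the chemokine receptor gene Cxcr2 was 0.492 and 0.428 FPKM in Ch25h_KO libraries and 0.507 and 0.665 FPKM in Ch25h_WT libraries, both lower in Ch25h_KO without overlap. The granule genes Mpo and Elane were at 0 in both Ch25h_KO libraries and at no more than 0.125 FPKM in the Ch25h_WT libraries. On the higher side without overlap, Csf3r was 48.2 and 48.0 FPKM in Ch25h_KO libraries and 39.9 and 38.6 FPKM in Ch25h_WT libraries. S100a9 was 15.0 and 16.5 FPKM in Ch25h_KO libraries and 13.9 and 13.4 FPKM in Ch25h_WT libraries. Ngp was 0.0911 and 0.292 FPKM in Ch25h_KO libraries and 0 in both Ch25h_WT libraries. Of the 10 genes, 5 were under 1 FPKM in every library. Of the 3 tested neutrophil genes 0 passed with limma, and 3 were higher at an unadjusted p under 0.05, against 9.38% of all tested loci. Their part in the Prok2 and Osm differences was not tested.

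The summed level of monocyte markers was also higher in Ch25h_KO, with 2 of the 6 genes higher and 3 lower without overlap. The 6 genes summed to 61.3 and 63.8 FPKM in Ch25h_KO libraries and 51.8 and 48.9 FPKM in Ch25h_WT libraries. One of the 6, Ly6c2, passed with limma and was higher, at 14.3 and 17.3 FPKM in Ch25h_KO libraries and 3.12 and 2.70 FPKM in Ch25h_WT libraries (limma adjusted p = 0.0117). The higher sum rested on Ly6c2. Ly6c2 shares near-identical sequence with a paralog, so its level is uncertain. The part of monocytes in these differences was not tested.

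Pdgfa encodes a chain of platelet-derived growth factor, a mitogen of smooth muscle cells and fibroblasts. Pdgfa was 41.5 and 45.3 FPKM in Ch25h_KO libraries and 34.9 and 35.1 FPKM in Ch25h_WT libraries, a ratio of 1.24 (log2 difference 0.30, SE 0.065). Both Ch25h_KO libraries were higher, and the Ch25h_WT libraries lay close together. Platelets store PDGF and TGF-beta 1, and the 7 platelet and erythroid genes summed to 2195 and 2068 FPKM in Ch25h_KO libraries and 1652 and 1712 FPKM in Ch25h_WT libraries. Nearly all of that was Pf4, at 2155 and 2028 FPKM in Ch25h_KO libraries and 1625 and 1681 FPKM in Ch25h_WT libraries, while the platelet gene Gp9 was at 0 in all 4 libraries and Itga2b was at most 0.202 FPKM. The platelet gene Ppbp overlapped, at 1.69 and 0.745 FPKM in Ch25h_KO libraries and 0.902 and 0.922 FPKM in Ch25h_WT libraries. Of the 4 tested genes 0 passed with limma. Pf4 and the erythroid gene Hbb-b1, 2 of the 4, were higher at an unadjusted p under 0.05, against 9.38% of all tested loci. The part of platelets in the Pdgfa and Tgfb1 differences was not tested.

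Igf1, the insulin-like growth factor that macrophages supply in repair, was 21.7 and 19.6 FPKM in Ch25h_KO libraries and 20.9 and 22.3 FPKM in Ch25h_WT libraries. The libraries interleaved, with a ratio of 0.956 and a log2 difference of -0.06 (SE 0.073). Igf1 was the tested member with the smallest difference.

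**Figure D3:**
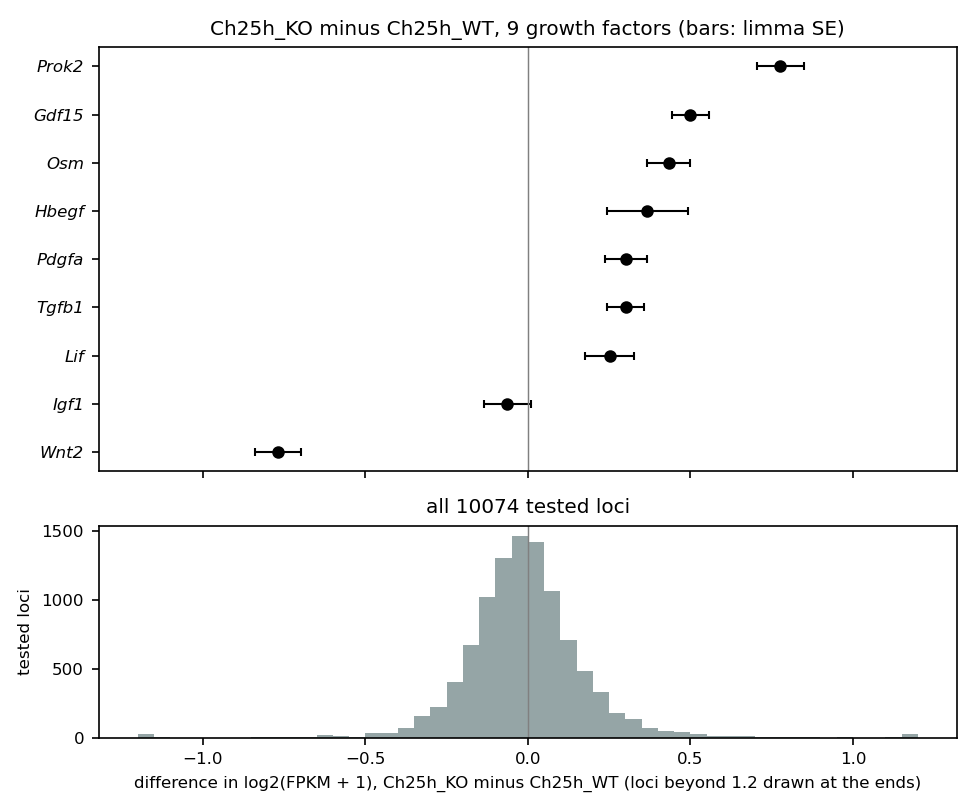
Difference in log2(FPKM + 1), Ch25h_KO minus Ch25h_WT (horizontal axis), of the 9 tested growth factors with limma SE, above the distribution of the same difference over all 10074 tested loci. Prok2 at 0.78 and Wnt2 at -0.77 lie in opposite tails, 6 others lie between 0.25 and 0.50, and Igf1 lies at -0.06.

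Receptors and partners of these ligands were compared in the same fit, as lists drawn up by role with earlier results of these data known. Of 165 such genes in the table, 93 passed the filter, and 0 passed with limma at an adjusted p under 0.05. At an unadjusted p under 0.05, 16 were higher and 13 lower, against 9.38% and 11.5% of all tested loci. The median log2 difference of the 93 genes was -0.003, beside -0.014 for all tested loci. When limma modelled the spread with its trend and robust options, 14 of the 93 were called, 9 higher and 5 lower. Of all 10074 tested loci, 786 were called with those options. Among the 58 pathway genes with a mean of at least 5 FPKM the count was 4, beside 175 of 7221 loci under that filter. The 4 were Inhba, Eng and Pmepa1, which were higher, and Ltbp1, which was lower.

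The list with the most tested genes was that of TGF-beta receptors, SMADs and targets, where all 25 genes passed the filter. Eng, the co-receptor endoglin, was 52.1 and 52.6 FPKM in Ch25h_KO libraries and 34.9 and 37.8 FPKM in Ch25h_WT libraries (limma adjusted p = 0.0704). The signalling receptor gene Tgfbr2 was 34.8 and 36.8 FPKM in Ch25h_KO libraries and 36.0 and 34.4 FPKM in Ch25h_WT libraries, and so overlapped. The list had 6 genes higher and 4 lower at an unadjusted p under 0.05.

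Among ligands and activators of the TGF-beta family, 12 of 20 genes passed the filter. Inhba, which encodes the activin A subunit, was 7.77 and 8.74 FPKM in Ch25h_KO libraries and 4.88 and 4.48 FPKM in Ch25h_WT libraries (limma adjusted p = 0.0656). Ltbp1, a protein that holds latent TGF-beta in the matrix, was 37.0 and 38.2 FPKM in Ch25h_KO libraries and 47.2 and 47.5 FPKM in Ch25h_WT libraries (limma adjusted p = 0.0970). Tgfb2 was 5.08 and 4.88 FPKM in Ch25h_KO libraries and 4.90 and 5.03 FPKM in Ch25h_WT libraries, and so overlapped. At an unadjusted p under 0.05 the list had 2 genes higher and 2 lower.

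The EGF ligands beside Hbegf and Ereg were low, with 3 of 8 genes past the filter. Nrg1, a neuregulin, was 2.34 and 2.12 FPKM in Ch25h_KO libraries and 1.21 and 1.09 FPKM in Ch25h_WT libraries (limma adjusted p = 0.0656), and Nrg4 was 4.25 and 3.47 FPKM in Ch25h_KO libraries and 4.46 and 4.80 FPKM in Ch25h_WT libraries (limma adjusted p = 0.291). Areg, the amphiregulin gene next to Ereg on chromosome 5, was 0.964 and 1.50 FPKM in Ch25h_KO libraries and 1.59 and 1.35 FPKM in Ch25h_WT libraries. The receptor gene Egfr was under 1 FPKM in every library. Of 7 tested genes of EGF receptors and ligand shedding, 1 was higher and 3 lower at an unadjusted p under 0.05. Cd9, a tetraspanin that binds the HB-EGF precursor, was 337 and 320 FPKM in Ch25h_KO libraries and 402 and 440 FPKM in Ch25h_WT libraries (limma adjusted p = 0.111). Rhbdf2, which brings the sheddase ADAM17 to the surface, was 60.7 and 60.2 FPKM in Ch25h_KO libraries and 54.9 and 53.4 FPKM in Ch25h_WT libraries (limma adjusted p = 0.207). The sheddase gene Adam17 lay the other way, at 56.8 and 57.3 FPKM in Ch25h_KO libraries and 66.8 and 62.7 FPKM in Ch25h_WT libraries (limma adjusted p = 0.202).

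The gp130 list had 11 tested genes, with 2 higher and none lower at an unadjusted p under 0.05. The shared receptor chain Il6st was 30.0 and 31.2 FPKM in Ch25h_KO libraries and 30.0 and 30.0 FPKM in Ch25h_WT libraries, and the LIF receptor gene Lifr was 4.27 and 3.99 FPKM in Ch25h_KO libraries and 3.95 and 3.89 FPKM in Ch25h_WT libraries. The oncostatin M receptor gene Osmr was low, at 1.13 and 0.807 FPKM in Ch25h_KO libraries and 0.529 and 0.719 FPKM in Ch25h_WT libraries, and did not pass the filter. Il11ra1 was 19.0 and 17.5 FPKM in Ch25h_KO libraries and 14.6 and 13.6 FPKM in Ch25h_WT libraries (limma adjusted p = 0.116). On the lower side the smallest p was that of Il6ra, at 11.6 and 12.3 FPKM in Ch25h_KO libraries and 12.8 and 12.8 FPKM in Ch25h_WT libraries (limma adjusted p = 0.419).

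In the IGF list 6 of 14 genes were tested. Igf2r, the receptor that clears IGF2 and carries enzymes to lysosomes, was 25.4 and 28.4 FPKM in Ch25h_KO libraries and 33.7 and 33.8 FPKM in Ch25h_WT libraries (limma adjusted p = 0.125). The binding protein gene Igfbp4 was 4.50 and 5.52 FPKM in Ch25h_KO libraries and 4.21 and 3.62 FPKM in Ch25h_WT libraries (limma adjusted p = 0.243). The receptor gene Igf1r was 2.06 and 2.45 FPKM in Ch25h_KO libraries and 2.59 and 2.60 FPKM in Ch25h_WT libraries (limma adjusted p = 0.354).

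Of the PDGF and VEGF family 5 of 15 genes were tested. Vegfa was 33.0 and 35.4 FPKM in Ch25h_KO libraries and 27.1 and 27.0 FPKM in Ch25h_WT libraries (limma adjusted p = 0.110). The co-receptor gene Nrp1 was 4.40 and 4.46 FPKM in Ch25h_KO libraries and 5.03 and 4.96 FPKM in Ch25h_WT libraries (limma adjusted p = 0.227), on a locus that carries 2 symbols. The PDGF receptor genes Pdgfra and Pdgfrb were at most 0.221 FPKM in any library.

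Of 35 WNT genes 17 were tested, with 1 higher and none lower at an unadjusted p under 0.05. Dvl2, which relays the signal from WNT receptors, was 9.02 and 9.48 FPKM in Ch25h_KO libraries and 7.40 and 7.38 FPKM in Ch25h_WT libraries (limma adjusted p = 0.111). Fzd7, a WNT receptor, was 4.65 and 4.02 FPKM in Ch25h_KO libraries and 4.74 and 5.29 FPKM in Ch25h_WT libraries (limma adjusted p = 0.333). The prokineticin receptor gene Prokr1 was 2.52 and 2.31 FPKM in Ch25h_KO libraries and 2.26 and 1.99 FPKM in Ch25h_WT libraries (limma adjusted p = 0.378). Prokr2, the related ligand Prok1 and the GDF15 receptor gene Gfral were listed at 0 in all 4 libraries.

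Other secreted growth factors were tested for 6 of 19 genes, with 2 higher and 2 lower at an unadjusted p under 0.05. Hgf, the hepatocyte growth factor gene, was 2.25 and 1.97 FPKM in Ch25h_KO libraries and 1.61 and 1.10 FPKM in Ch25h_WT libraries (limma adjusted p = 0.181). Adm, which encodes the vasodilator adrenomedullin, was 3.63 and 3.89 FPKM in Ch25h_KO libraries and 4.52 and 4.66 FPKM in Ch25h_WT libraries (limma adjusted p = 0.141).

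**Figure D4:**
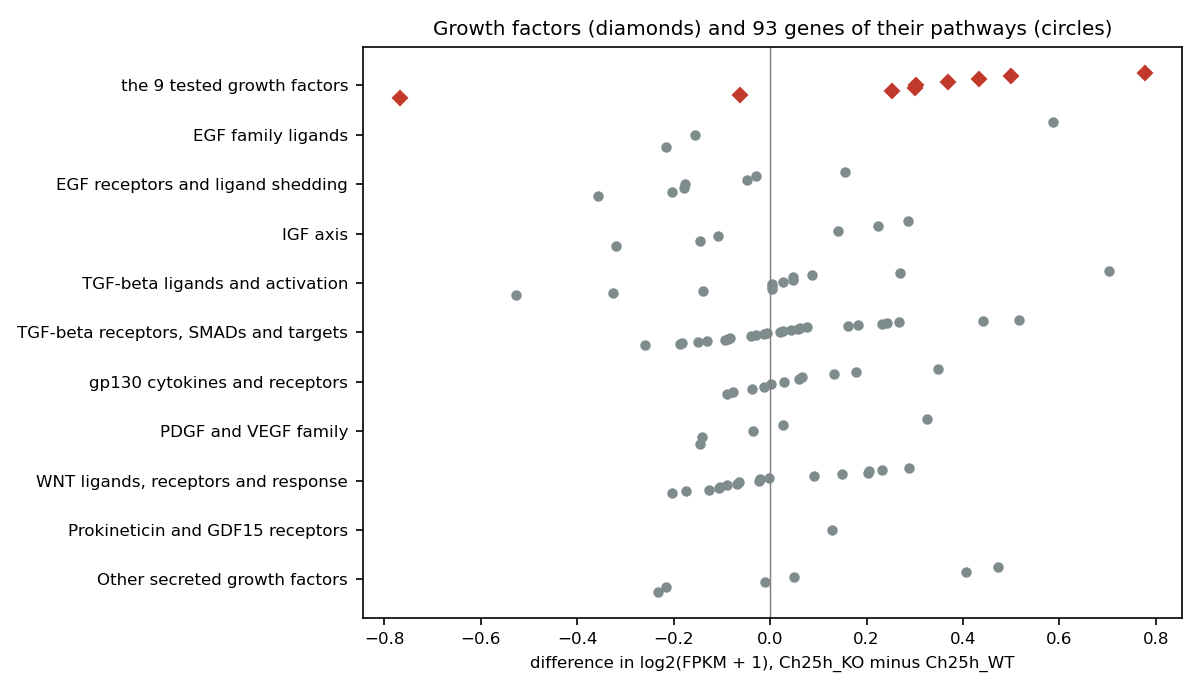
Difference in log2(FPKM + 1), Ch25h_KO minus Ch25h_WT (horizontal axis), of the 9 tested growth factors (diamonds) and of 93 tested genes of their pathways (circles), 1 row per list, spread within a row for legibility. The pathway genes lie on both sides of 0, with Inhba at 0.70 and Nrg1 at 0.59 farthest to the right.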

How the data were processed

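The authors deposited a single table of FPKM per locus and library; its header names no unit, which was taken from the values, and any scaling between libraries is not given in the sources used here. Per the submitters' processing notes, bcl2fastq, TopHat2 2.0.14, Cufflinks 2.2.1 and mm9 were used. Annotation, strand and filters are not given there, so overlapping genes cannot be told apart. Lines of a locus (24192 lines) were joined into 23735 loci, and 0 columns were left out.

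The values were put on a log2 scale after adding 1 FPKM, which understates the change of low genes. Loci averaging 1 FPKM or more (10074) entered a limma fit (version 3.58.1, R 4.3.3) with genotype alone, and p-values were adjusted over all of them by Benjamini-Hochberg with a threshold of 0.05. No count test was run. The fit was also run on simulated data with added differences and with spreads shuffled between loci. That run keeps no link between level and spread, so nothing is read from it.

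Relative depth came from the most common ratio of values under 0.5 FPKM. Of 2274 loci with a mean under 0.2 FPKM, 96.4% were whole multiples of a fragment value (tolerance 0.01), and implied depth was 9540000 to 12400000 fragments. Mean chi-square per low locus was 1.13 within each group, so no library was treated as a copy of another. Between libraries of different groups it was 1.21 to 1.27. These values do not tell biological from technical replicates.

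The members and lists were chosen with earlier results of these data known. All members are named, and from each pathway list any called gene, or otherwise the gene with the smallest p on each side. Some genes that this rule names are not reported here. Receptors, neighbouring genes and Adam17 were added after their values were seen. Alternatives covered pseudocount, filters, spread model, scaling, replicate block and each library left out.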

Additional observations from a re-analysis of the deposited data

How the results depend on the processing

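Against 44 called loci (limma), the count was 18 with no filter, 175 at a mean of at least 5 FPKM, 786 with trend and robust options, and between 13 and 21 with a library left out, where the lone library is assumed to vary like the others; the cause was not tested. It was 30 with a pseudocount of 0.1 and 49 after median-centring. Of the 0 pathway genes called, 4 were called at a mean of at least 5 FPKM and 14 with trend and robust options; with a library left out the count stayed at 0. With the replicate block, 6 loci and 0 pathway genes were called; the numbers are only labels here, since deviations of same-numbered libraries correlated at 0.012 over loci.

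Prok2 was not called with any single library left out (log2 differences 0.71 to 0.85 over all alternatives), with the replicate block, with no filter or with a pseudocount of 0.1. Wnt2 was called in 2 of its 9 alternatives only, trend and robust options and median-centring (range -0.96 to -0.70). Its level kept it out of the fit at a mean of at least 5 FPKM. With trend and robust options Gdf15, Osm, Tgfb1 and Pdgfa were called as well, and at a mean of at least 5 FPKM Gdf15 and Osm. Those options called 786 of all 10074 tested loci, and that filter 175 of 7221. The members were chosen with their values known, so nothing is read from these calls. Igf1 turned to 0.005 without Ch25h_KO replicate 2, within its spread; the other 8 tested members kept their sign in every alternative run. Depth limits Ereg most, at 11 to 37 fragments per library.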
